A study of Arabidopsis thaliana with 6 samples.

Results

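The genes described here are 7 floral repressors of *Arabidopsis thaliana* that encode MADS-box transcription factors: *FLC*, its 5 closest relatives *FLM* (also called *MAF1*), *MAF2*, *MAF3*, *MAF4* and *MAF5*, and *SVP*. They were picked by gene identifier, with earlier results of these data known. All 7 were present among the 18368 genes of the deposited table. The 7 identifiers were AT5G10140 (*FLC*), AT1G77080 (*FLM*), AT5G65050 (*MAF2*), AT5G65060 (*MAF3*), AT5G65070 (*MAF4*), AT5G65080 (*MAF5*) and AT2G22540 (*SVP*). Each of them passed the filter on low values, a mean of at least 10 normalized counts, as did 16771 of the 18368 genes.

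Messenger RNA was sequenced from wild type (WT) seedlings of the Col-0 accession grown on 1/2 MS plates. Vernalized seedlings (4v) spent 7 days at 22 °C followed by 28 days at 5 °C, whereas non-vernalized seedlings (0v) spent 11 days at 22 °C. There were 3 biological replicates of each. The 4v seedlings were thus 35 days old and the 0v seedlings 11 days old, so cold and age cannot be told apart in this comparison. Col-0 carries a non-functional *FRI* allele, so that its *FLC* level is low before any cold, which limits it as a model of the vernalization response.

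Flowering in *Arabidopsis* is held back by MADS-box proteins that bind the genes of the floral integrators *FT* and *SOC1*. FLC is the central repressor of the vernalization pathway: prolonged cold silences its gene through the Polycomb repressive complex PRC2 and its cold-induced partner VIN3, and the silent state is kept after the return to warmth. SVP is a partner protein of FLC, and also pairs with FLM and MAF proteins, which repress flowering in the ambient temperature pathway.

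The close kinship of the genes bears on how reads are assigned to them, and is seen in the first 90 coding bases, which encode the start of the DNA-binding MADS domain. These stretches (RefSeq, build TAIR10.1, given 5′ to 3′ on the coding strand) carry capitals where a base differs from *FLC*. They lie at chr5:3179250-3179339 (minus strand), chr1:28955679-28955768, chr5:25982415-25982504, chr5:25992310-25992399 and chr2:9580417-9580506 (all plus strand).
FLC: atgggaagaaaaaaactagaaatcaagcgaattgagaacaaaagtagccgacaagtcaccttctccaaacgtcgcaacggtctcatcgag
FLM: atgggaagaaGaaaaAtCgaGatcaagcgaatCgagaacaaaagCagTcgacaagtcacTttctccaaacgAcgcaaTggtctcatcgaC
MAF2: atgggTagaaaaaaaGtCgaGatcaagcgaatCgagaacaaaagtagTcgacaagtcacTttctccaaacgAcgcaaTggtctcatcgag
MAF4: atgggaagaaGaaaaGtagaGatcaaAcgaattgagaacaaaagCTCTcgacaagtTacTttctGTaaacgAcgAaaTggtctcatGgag
SVP: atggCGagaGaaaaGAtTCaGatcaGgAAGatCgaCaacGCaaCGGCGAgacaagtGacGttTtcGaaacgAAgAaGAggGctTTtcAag
*MAF2* shared 81 of the 90 bases with *FLC*, *FLM* and *MAF3* 79 each, *MAF4* 74, *MAF5* 73 and *SVP* 55. Among the relatives, *FLM* and *MAF3* shared 87 of the 90 bases, and *MAF4* and *MAF5* shared 83. For *MAF5* the stretch was taken from an in-frame ATG 21 bases inside the annotated coding sequence.

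Over whole transcripts, sharing was measured as exact stretches of 31 bases, which cannot be set directly against the base counts above. Of the 1231 stretches of 31 bases in annotated *FLC* transcripts, 0 were found in another of the 7 genes, and the same held for the 1818 of *SVP*. *MAF3* shared the largest part, 149 of its 1485 stretches, of which 114 were shared with *MAF2*. The shares were 3.78% for *MAF2*, 1.05% for *FLM*, 1.04% for *MAF4* and 1.12% for *MAF5*, so reads falling there are uncertain between genes. *FLC* is overlapped on the opposite strand by the long non-coding RNA AT5G01675, which had no row of its own among the genes used here, and 60.6% of the *FLC* stretches also occur in that RNA, read on either strand. The setting for strand was not given in the sources used here, so sense and antisense reads of *FLC* cannot be told apart.

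*FLC* silencing in the cold is known to involve the RY motif TGCATG (or CATGCA on the other strand), read by the B3-domain proteins VAL1 and VAL2 in the first intron. The windows around this motif are shown for the 6 *FLC*-clade genes because all 6 genes carry it and only 1 of them, *FLC*, was lower in 4v. Capitals mark the motif, and the windows lie at chr5:3178808-3178886 (minus strand) for *FLC* and, on the plus strand, at chr1:28956157-28956202 for *FLM*, chr5:25982871-25982916 for *MAF2*, chr5:25987984-25988029 for *MAF3*, chr5:25992777-25992822 for *MAF4* and chr5:25998071-25998118 for *MAF5* (RefSeq, TAIR10.1).
FLC: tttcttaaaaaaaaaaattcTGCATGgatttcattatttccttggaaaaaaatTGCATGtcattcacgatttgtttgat
FLM: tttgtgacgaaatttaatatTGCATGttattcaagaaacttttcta
MAF2: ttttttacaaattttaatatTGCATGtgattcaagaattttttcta
MAF3: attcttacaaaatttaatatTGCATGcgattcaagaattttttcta
MAF4: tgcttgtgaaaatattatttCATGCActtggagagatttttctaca
MAF5: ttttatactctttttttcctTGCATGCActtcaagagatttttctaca
All of these matches fell in intron 1, between bases 583 and 701 from the annotated start of the gene. *FLC* had 2 matches, 33 bases apart, *MAF5* had 2 that overlap each other, and *FLM*, *MAF2*, *MAF3* and *MAF4* had 1 each, while *SVP* had 0 in its first 1000 bases. Of 17309 genes at least 1000 bases long, 19.7% held 1 or more matches in the first 1000 bases on either strand, 3.92% held 2 or more, and 2.02% held 2 within 60 bases. The presence of the motif describes the sequence and says nothing of binding in these seedlings.

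The 6 libraries were of very unequal depth. Library totals ran from 1636687 to 1836717 reads in 4 shallow libraries and from 20005225 to 23141488 in 2 deep ones, 4v replicate 2 and 0v replicate 3, so each group held 1 deep library. The values below are normalized counts as deposited, and the reads behind them were recovered from the size of 1 read in each library. Fold changes are differences of log2(normalized count + 4), 4v minus 0v, which understate the change of low genes, and a gene is said to have passed at a limma adjusted p (Benjamini-Hochberg over 16771 genes) under 0.05. In seedlings, fewer cells of a type and less RNA per cell cannot be told apart.

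Of the 7 genes, 1 was lower in 4v (*FLC*), 1 was higher (*FLM*) and 5 did not pass. Over all genes tested 13.4% passed, 6.46% as higher in 4v and 6.99% as lower. In 3 of the 7 genes the groups did not overlap, which was so for 39.2% of all genes tested. The median log2 fold change was 0.45 over the 7 genes and 0.05 over all genes tested. The 0.45 is the value of *MAF4*, which did not pass and gave -0.04 between the deep libraries, so it describes no shift of the 7 genes together.

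**Figure D1:**
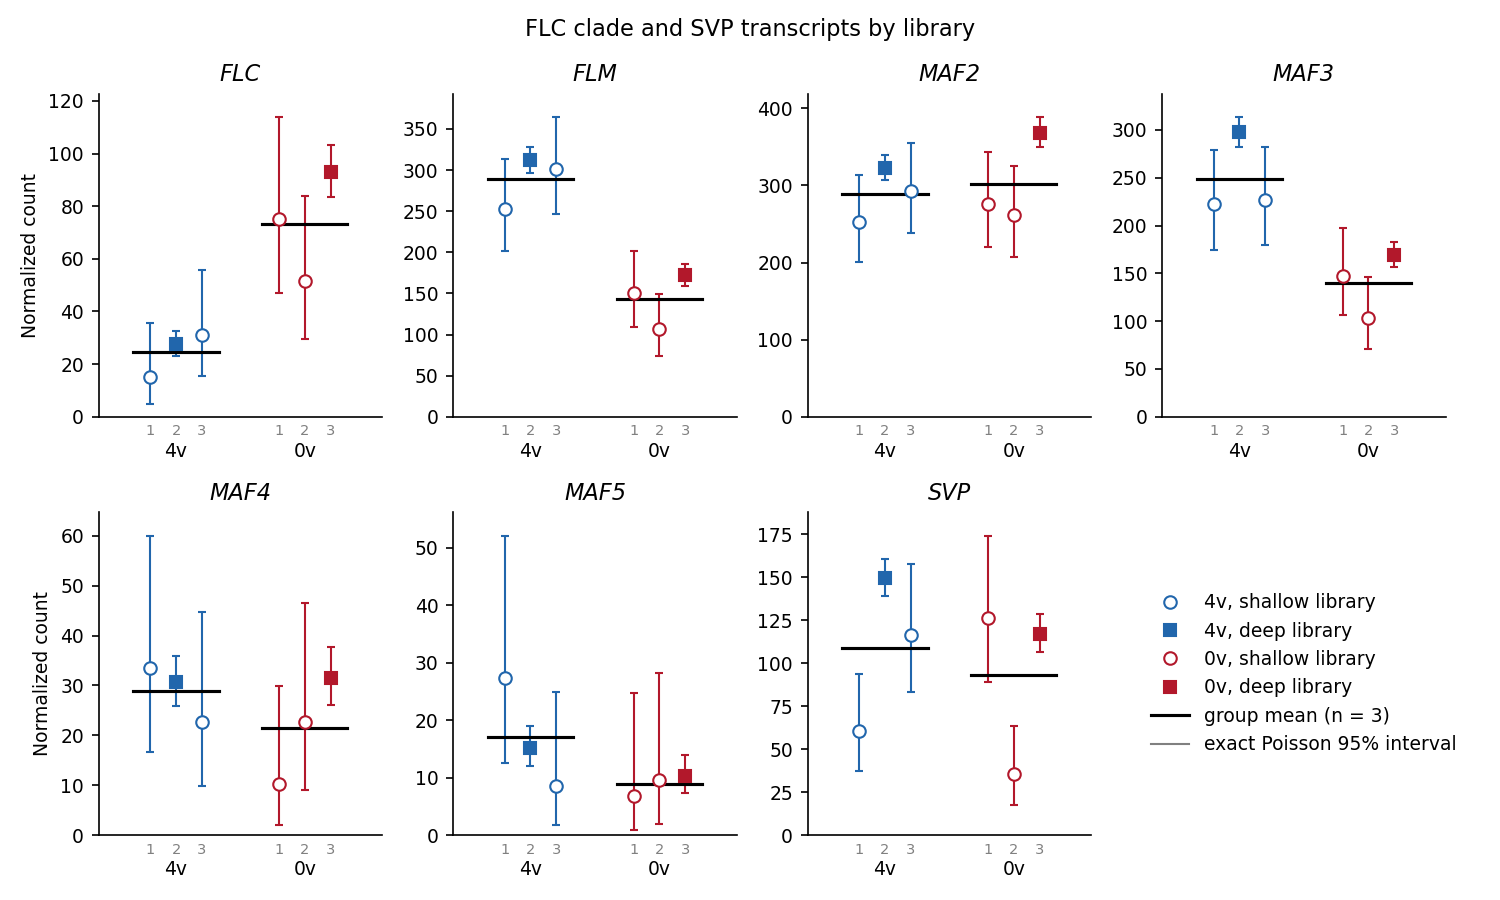
Normalized counts (linear axes from 0, a different scale in each panel) of the 7 genes in the 3 libraries of 4v (blue, left) and of 0v (red, right), with replicate numbers under the points, the group mean as a line and the exact Poisson 95% interval of each library, which covers counting error only. The 4v points of *FLC* lie between 15.2 and 31.2, all below the lowest 0v point of 51.6, those of *FLM* and *MAF3* all lie above the 0v points, and the groups overlap in the other panels.

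*FLC*, the repressor on which vernalization acts, had 15.2, 27.6 and 31.2 normalized counts in the 4v libraries, against 75.1, 51.6 and 92.9 in the 0v libraries. Every 4v library was below every 0v library. The means were 24.7 ± 8.38 in 4v and 73.2 ± 20.7 in 0v (SD, n = 3 each), which is 2.97-fold lower in 4v. On the log2 scale the change was -1.44 (SE 0.35, limma adjusted p = 0.0395).

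The *FLC* values rested on few reads in the shallow libraries. The reads numbered 5, 136 and 11 in 4v, against 22, 16 and 353 in 0v. In the 2 deep libraries the exact Poisson 95% interval ran from 23.1 to 32.6 normalized counts in 4v and from 83.5 to 103 in 0v, so these intervals lay well apart. The log2 fold change was -1.62 between the 2 deep libraries and -1.35 among the 4 shallow ones, so both depths gave the same direction. The call did not hold when libraries were left out: without any 1 of the 6 libraries *FLC* no longer passed, with limma adjusted p between 0.0504 (without 0v replicate 2) and 0.105 (without 4v replicate 1) and log2 fold changes between -1.66 and -1.17. *FLC* RNA was still detected in every 4v library.

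*FLM*, a repressor whose transcript is spliced in a temperature-dependent way, moved in the opposite direction. It had 253, 312 and 301 normalized counts in 4v, against 150, 106 and 172 in 0v. The lowest 4v library was above the highest 0v library, and the means were 289 ± 31.5 in 4v and 143 ± 33.3 in 0v (SD, n = 3 each), 2.02-fold higher in 4v. The log2 fold change was 1.02 (SE 0.21, limma adjusted p = 0.0237), with 0.85 between the deep libraries and 1.10 among the shallow ones. *FLM* lost the call without 4v replicate 1, 2 or 3 or without 0v replicate 1, where limma adjusted p was between 0.0596 and 0.0870. The table holds 1 value per gene, while 11 *FLM* transcripts are annotated, so the splice forms were not separated here.

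*MAF3* and *MAF2* are neighbours in the tandem cluster of *MAF2* to *MAF5* on chromosome 5, and MAF2 is known for holding back the response to short cold spells. *MAF3* had 222, 298 and 227 normalized counts in 4v, against 147, 103 and 169 in 0v. As for *FLM*, the groups did not overlap, and the mean was 249 ± 42.1 in 4v and 140 ± 33.7 in 0v (SD, n = 3 each). The log2 fold change of *MAF3* was 0.83 (SE 0.23), and with a limma adjusted p of 0.0539 it did not pass. It passed in 5 of 18 other settings, among them without 0v replicate 3, with limma adjusted p = 0.0296 and a log2 fold change of 0.98.

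*MAF2* had 253, 323 and 292 normalized counts in 4v, against 276, 261 and 368 in 0v. The groups overlapped throughout, with means of 289 ± 35.3 in 4v and 302 ± 57.9 in 0v (SD, n = 3 each). Its log2 fold change was -0.05 (SE 0.18, limma adjusted p = 0.873), and its sign was not stable when libraries were left out. *MAF2* RNA was thus measured with the most reads of the cluster, 81 to 1595 per library, and showed no difference beyond the spread between replicates.

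*MAF4* and *MAF5*, the last genes of the cluster, were near the limit of detection in the shallow libraries. *MAF4* had 33.5, 30.6 and 22.7 normalized counts in 4v, against 10.2, 22.6 and 31.6 in 0v, from 11, 151 and 8 reads in 4v and 3, 7 and 120 reads in 0v. The log2 fold change was 0.45 (SE 0.43, limma adjusted p = 0.505), but the 2 deep libraries alone gave -0.04. No difference in *MAF4* was detectable at this depth.

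*MAF5* had 27.4, 15.2 and 8.52 normalized counts in 4v, against 6.83, 9.68 and 10.3 in 0v. Only 9, 75 and 3 reads in 4v and 2, 3 and 39 reads in 0v stood behind these values. The groups overlapped, and the log2 fold change of 0.61 (SE 0.51, limma adjusted p = 0.446) was within the spread between replicates.

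*SVP*, the partner of the FLC-clade proteins, had 60.9, 150 and 116 normalized counts in 4v, against 126, 35.5 and 117 in 0v. Replicates differed more than groups: 4v replicate 1 and 0v replicate 2 were low, and the other 4 libraries lay between 116 and 150. The reads numbered 20, 739 and 41 in 4v and 37, 11 and 445 in 0v. In 0v replicate 2 the exact Poisson 95% interval reached 63.5 normalized counts and in 0v replicate 1 it began at 88.9, so the gap between these replicates was larger than counting error. Between groups the log2 fold change was 0.32 (SE 0.53, limma adjusted p = 0.717), and it was -0.24 without 0v replicate 2.

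**Figure D2:**
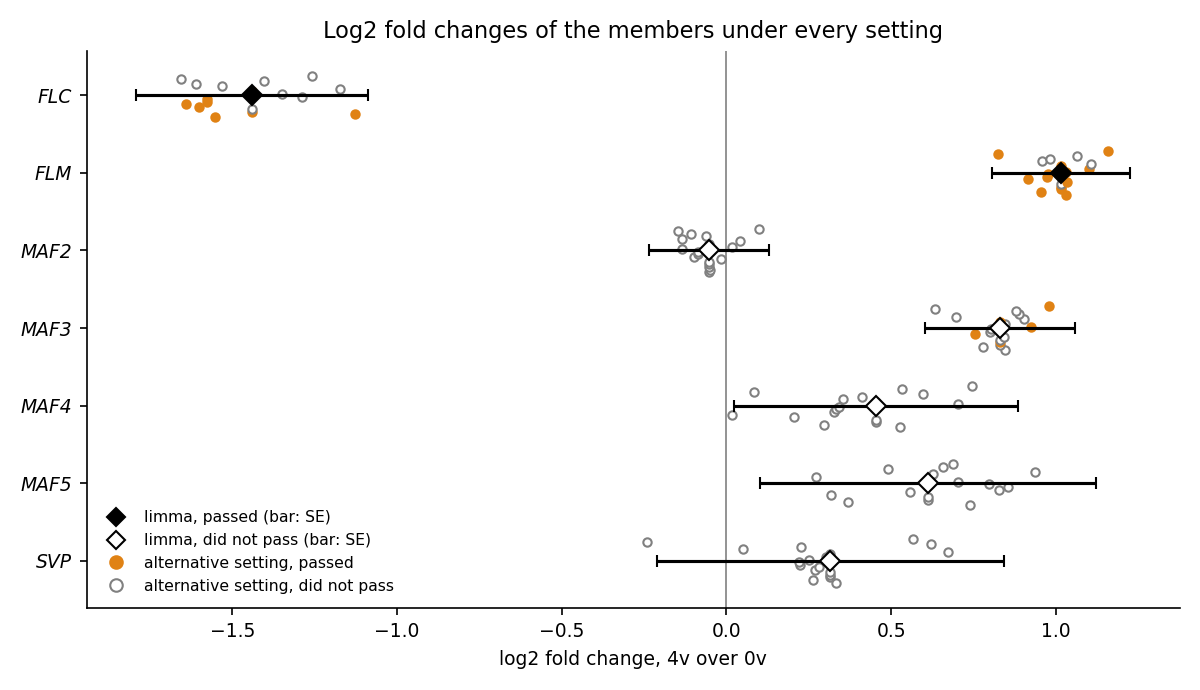
Log2 fold change (4v over 0v, horizontal axis) of each gene with its SE (diamonds, filled where the gene passed) and under the 17 or 18 other settings (circles, orange where the gene passed). *FLC* stayed between -1.66 and -1.13 and *FLM* between 0.82 and 1.16, while *MAF2* and *SVP* lay on both sides of 0.

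Ratios of 2 normalized counts within a library do not depend on its size factor, and set the 7 genes against each other. The log2 ratios and their differences were taken with 4 added to each count. They therefore depend in part on the size factor and understate changes where a gene is low. *FLC* amounted to 0.0602, 0.0883 and 0.104 of the *FLM* count in the 4v libraries, against 0.500, 0.485 and 0.541 in the 0v libraries. The log2 ratio differed by -2.45 (SE 0.19) between 4v and 0v. Against *MAF2*, which did not pass, *FLC* amounted to 0.0602, 0.0853 and 0.107 in 4v and 0.272, 0.198 and 0.252 in 0v.

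All 6 ratios with *FLC* were lower in 4v without overlap, with log2 differences between -2.45 (*FLM*) and -1.39 (*MAF2*). The ratio of *MAF2* to *MAF3*, neither of which passed alone, was 1.14, 1.09 and 1.29 in 4v, against 1.88, 2.53 and 2.17 in 0v, a log2 difference of -0.88 (SE 0.14). *FLM* against *MAF2* gave 1.07 (SE 0.12) and *FLM* against *MAF3* 0.19 (SE 0.10), also without overlap. Of the 21 pairs, 9 did not overlap, each with an exact two-sided permutation p = 0.1 over 3 against 3 libraries. That p is the smallest this design allows, and it became 0.233 after Benjamini-Hochberg adjustment over the 21 pairs, so no pair could pass 0.05. The pairs share genes and are not independent, and reads shared by *MAF2* and *MAF3* are not resolved in their ratio. The share of pairs without overlap was not computed over other genes. Among single genes tested, 39.2% did not overlap between the groups. *FLC* did not overlap by itself either, which its 6 ratios in part repeat.

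**Figure D3:**
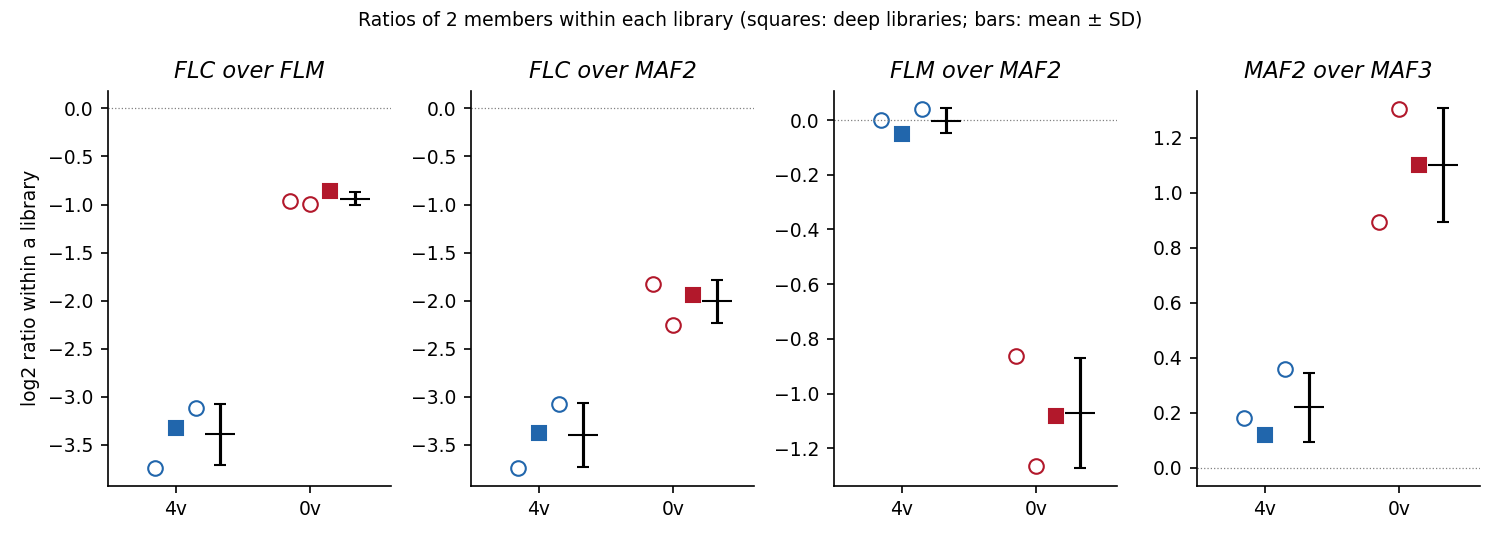
Log2 ratio of 2 genes within each library (vertical axis, a different scale in each panel) in 4v (blue, left) and 0v (red, right), with squares for the deep libraries and the mean ± SD of 3 libraries beside them. The log2 ratios were taken with 4 added to each normalized count. *FLC* over *FLM* and *FLC* over *MAF2* are lower in every 4v library, *FLM* over *MAF2* is higher, and *MAF2* over *MAF3* is lower.

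Levels of different genes were set side by side per kilobase of the longest annotated transcript. In 4v the order was *MAF3* (170 ± 28.8 normalized counts per kilobase, SD, n = 3), *MAF2* (92.0 ± 11.2), *FLM* (70.4 ± 7.70), *SVP* (60.9 ± 25.1), *FLC* (23.7 ± 8.05), *MAF4* (23.2 ± 4.47) and *MAF5* (15.1 ± 8.48). The ranges of neighbours overlapped for *FLM* and *SVP*, for *FLC* and *MAF4* and for *MAF4* and *MAF5*. *FLC* was thus among the 3 lowest genes in 4v.

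In 0v the order was *MAF2* (96.0 ± 18.4 normalized counts per kilobase), *MAF3* (95.5 ± 23.0), *FLC* (70.3 ± 19.9), *SVP* (51.9 ± 27.9), *FLM* (34.8 ± 8.12), *MAF4* (17.2 ± 8.58) and *MAF5* (7.90 ± 1.63). All neighbours in this order overlapped except *FLM* and *MAF4*. The order depends on the length used, since the longest annotated transcripts of *FLM* (4099 bases) and *MAF2* (3147 bases) are much longer than their coding sequences of 672 and 591 bases. Per kilobase of coding length *MAF2* came first in both groups and *FLC* the fifth in both, with 41.7 ± 14.2 in 4v and 124 ± 35.03 in 0v.

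The nearest genes on the chromosome were examined beside the 7 repressors. *FLC* lies at chr5:3173382-3179448, and its nearest genes in the table on either side, AT5G10110 and *UFC*, did not pass. AT5G10110 had 39.6, 44.0 and 59.6 normalized counts in 4v, against 34.1, 45.2 and 55.3 in 0v. *UFC*, known to be silenced with *FLC* in the cold, had 0, 41.1 and 25.6 in 4v, against 0, 3.23 and 103 in 0v, which is too wide a spread for a direction.

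Next to *FLM* (chr1:28955483-28960234), AT1G77060 was lower in 4v, with 140, 109 and 165 normalized counts in 4v and 270, 300 and 330 in 0v (log2 fold change -1.11, SE 0.19, limma adjusted p = 0.0142), the opposite direction to *FLM*. *PPD4*, which begins 78 bases after *FLM*, did not pass. Within the cluster, *MAF2* to *MAF5* lie head to tail between 25982254 and 26002619 on chromosome 5, and neither AT5G65040 before nor *IP5P5* after them passed. Beside *SVP* (chr2:9579647-9583901), AT2G22530 did not pass and *NET2D*, an actin-binding protein gene, was higher in 4v, with 46.5 ± 11.9 normalized counts in 4v and 11.6 ± 4.24 in 0v (SD, n = 3 each; log2 fold change 1.71, SE 0.39, limma adjusted p = 0.0304). *NET2D* passed in 10 of 17 other settings. Of the 8 neighbours 1 was higher, 1 lower and 6 did not pass. Among all genes tested the shares were 6.46% higher and 6.99% lower.

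**Figure D4:**
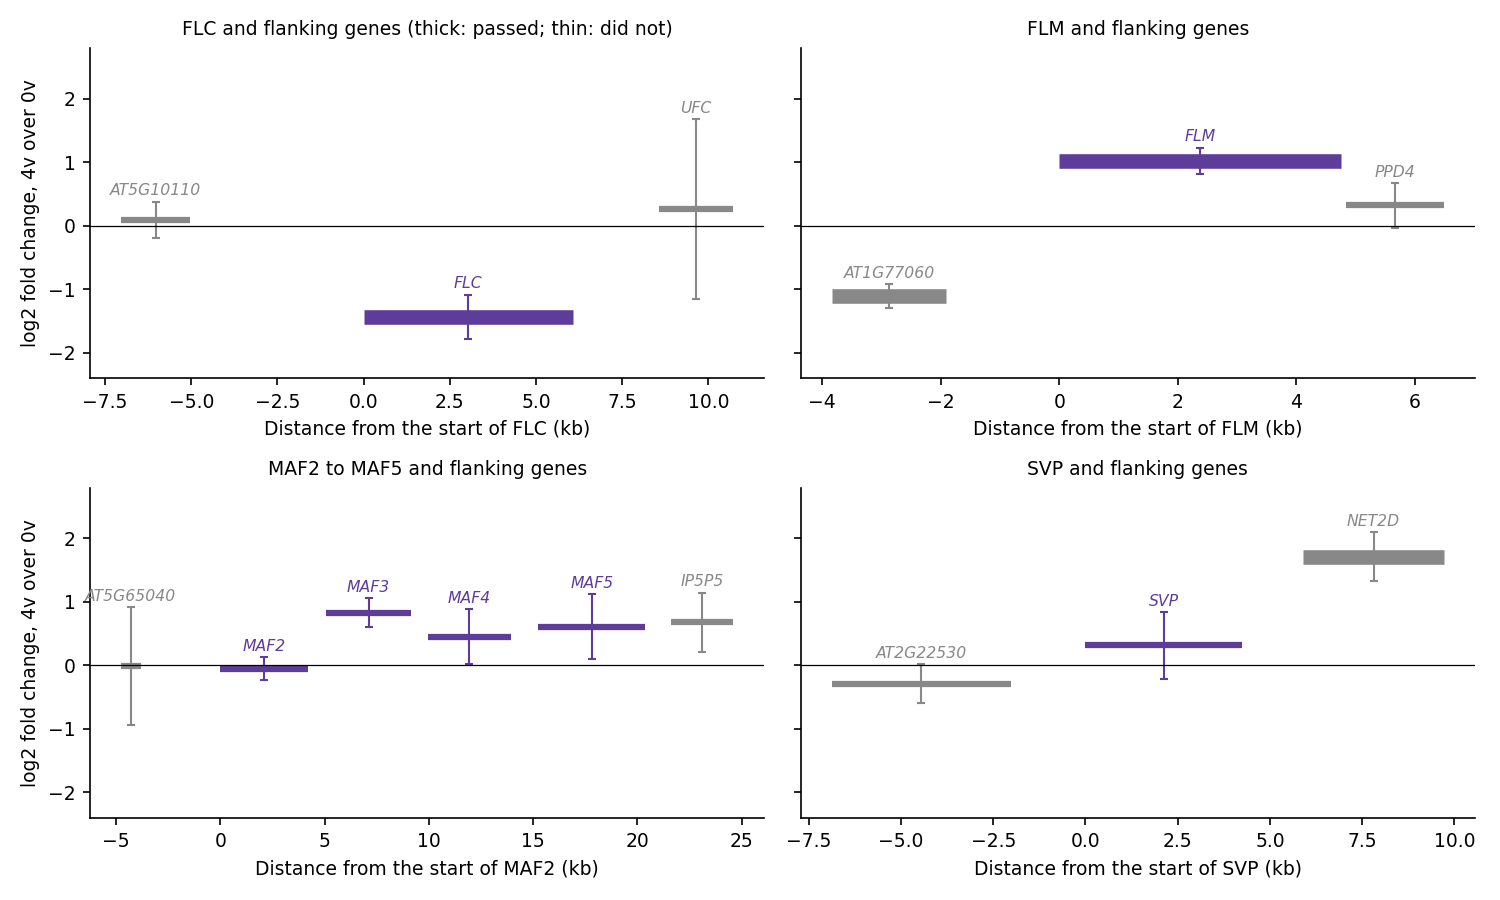
Log2 fold change (4v over 0v, vertical axis, bars SE) of the 7 genes (purple) and the nearest table genes beside them (grey), drawn along the chromosome to scale as distance in kilobases from the lower-coordinate end of the gene or cluster; thick segments passed and thin ones did not. *FLC* (-1.44) lies below AT5G10110 (0.09), the SE of *UFC* (1.42) is too wide to place it, and *FLM* (1.02) lies beside AT1G77060 (-1.11).

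Among the listed targets and integrators, 6 of 11 were in the table and 5 were tested, of which 1 was higher in 4v and 0 lower. Of all genes tested, 6.46% were higher and 6.99% lower. *SOC1*, an integrator that FLC and SVP repress, had 390, 410 and 415 normalized counts in 4v, against 116, 132 and 193 in 0v. The groups were far apart, and the log2 fold change of 1.47 (SE 0.20, limma adjusted p = 0.00753) passed in all 18 other settings. *FT*, the florigen gene repressed by the same complexes, had too low a mean to be tested, with 10, 15 and 5 reads in 4v, against 0, 1 and 0 in 0v. Its normalized counts were 30.5, 3.04 and 14.2 in 4v and 0, 3.23 and 0 in 0v, so the deep 4v library was level with the single read of a 0v library. *AGL24*, *FD*, *TEM1* and *TEM2* did not pass.

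The repressors of *FLC*, proteins of the vernalization and autonomous pathways, had 19 of 19 genes in the table, 18 tested, 2 higher in 4v and 0 lower. The 2 are 11.1% of those tested, while 13.4% of all genes tested passed, 6.46% as higher and 6.99% as lower. *VIN3*, the cold-induced PHD-finger partner of PRC2, had 36.5, 76.2 and 122 normalized counts in 4v, against 0, 0 and 1.05 in 0v. Its reads numbered 12, 376 and 43 in 4v, against 0, 0 and 4 in 0v, and its log2 fold change was 4.10 (SE 0.53, limma adjusted p = 0.00634). Against so few 0v reads the size of this change depends on the pseudocount and the tool, and it ran from 2.42 (pseudocount 16) to 6.48 (DESeq2) over 17 other settings, in all of which *VIN3* passed. *FVE*, an autonomous-pathway gene that encodes an MSI1-like WD-repeat protein, had 399, 381 and 369 in 4v, against 225, 287 and 210 in 0v (log2 fold change 0.67, SE 0.16, limma adjusted p = 0.0350). *FVE* passed in 12 of 18 other settings.

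*VRN2*, the PRC2 subunit needed for keeping *FLC* silent, had 152, 142 and 139 normalized counts in 4v, against 106, 148 and 123 in 0v. The groups overlapped (log2 fold change 0.21, SE 0.18, limma adjusted p = 0.471). The activators of *FLC* include the FRIGIDA complex, the PAF1 complex and histone methyltransferases, and 17 of 18 were in the table and tested. With limma 0 of them passed in either direction, against 13.4% of all genes tested. In 3 of the 17 (*VIP4*, *VIP5* and *FES1*) every 4v library was below every 0v library, and in 0 every one was above. Over all genes tested these shares were 18.7% for lower and 20.5% for higher, so only the lower share was near the background. Among the 18 repressors tested the groups did not overlap in 3 lower (*VRN1*, *VEL1* and *LD*) and 5 higher (*VIN3*, *FVE*, *CLF*, *VAL2* and *MSI1*). Of these, *VIN3* and *FVE* passed. With limma-voom on recovered reads, by which 28.7% of all genes passed, *VIP4*, *VIP5* and *FES1* were called lower in 4v. These 3 had an unadjusted limma p under 0.05, DESeq2 called 1 of them (*VIP5*) and edgeR 0. Over all genes DESeq2 called 1101 higher and 1389 lower, and edgeR 946 and 1202. Unadjusted limma p was also under 0.05 for 4 repressors that were higher (*VIN3*, *CLF*, *FVE* and *VAL2*) and 1 that was lower (*VEL1*). The share of all genes at that unadjusted threshold was not computed, so the unadjusted counts cannot be read as a result about either list. The median log2 fold change was -0.13 over the 17 activators, 0.18 over the 18 repressors and 0.05 over all genes tested. The lists were chosen with earlier results of these data known, so their counts describe and do not test the pathway.

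**Figure D5:**
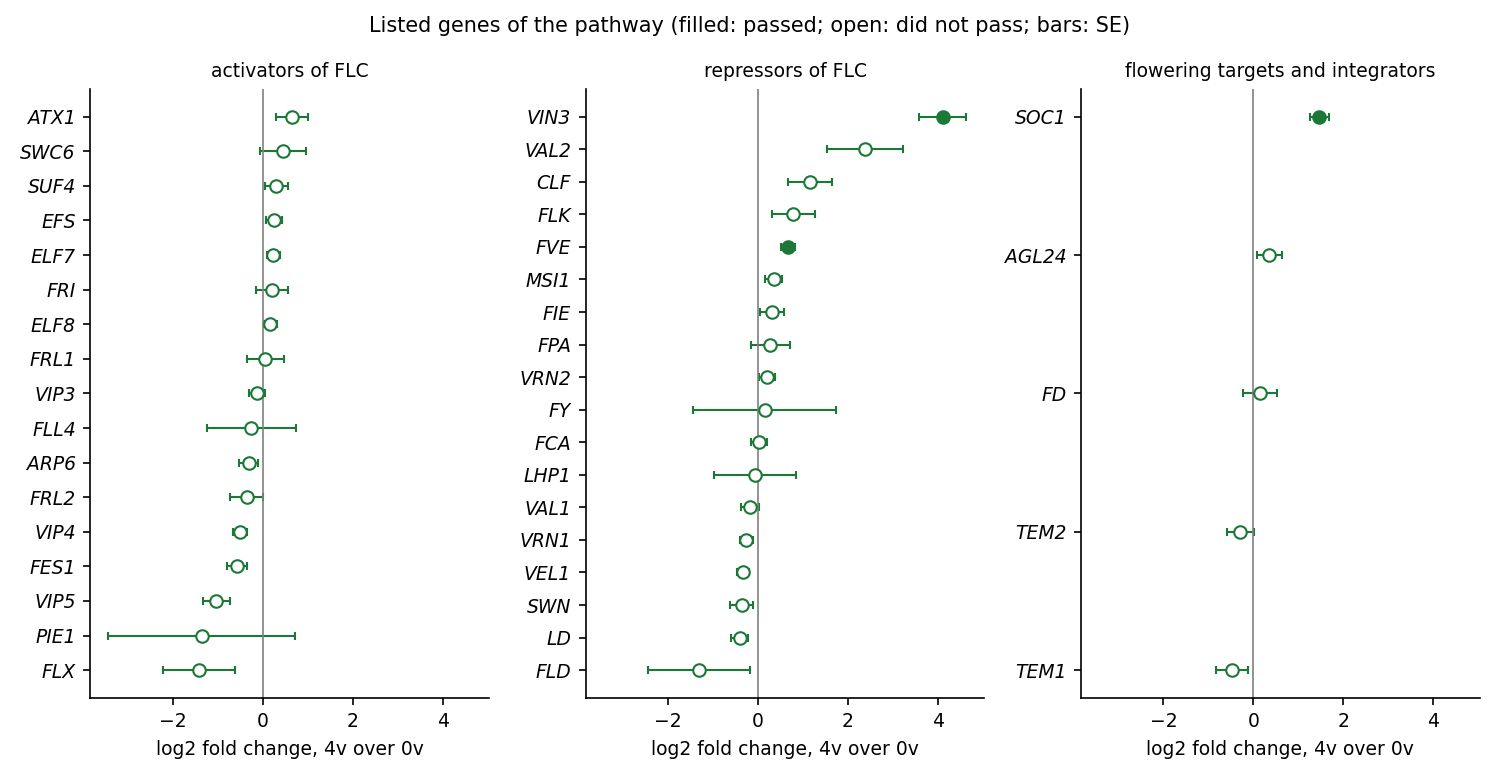
Log2 fold change (4v over 0v, horizontal axis, bars SE) of the tested genes among the activators of *FLC* (left), its repressors (middle) and the targets and integrators (right), filled where the gene passed. *VIN3* (4.10), *FVE* (0.67) and *SOC1* (1.47) passed, and none of the activators did.

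Of 31 other MIKC-type MADS-box genes, the wider family of the 7 repressors, 10 were in the table and 6 tested, and *SOC1* was the 1 that passed. With limma 13.4% of all genes tested passed. Of the listed floral organ genes of this family, only *PI* and *SEP4* had a row among the genes used here. *PI*, a petal and stamen identity gene, had 0, 3.45 and 0 normalized counts in 4v, against 10.2, 6.45 and 63.7 in 0v. *SEP4*, a floral meristem and organ gene, had 18.3, 16.2 and 19.9 in 4v, against 41.0, 38.7 and 31.8 in 0v. Neither group pair overlapped, and neither gene passed with limma (adjusted p = 0.136 for *PI* and 0.0922 for *SEP4*), while limma-voom called both lower in 4v (adjusted p = 0.0311 for *PI* and 0.0148 for *SEP4*).

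Markers of root, shoot meristem and leaf were read beside these values, with 13.4% of all genes passing with limma and 28.7% with limma-voom. Over all genes tested the groups did not overlap in 18.7% as lower in 4v and in 20.5% as higher. Of 10 root markers 7 were tested and 1 passed, *PYK10*, which was lower in 4v (log2 fold change -1.39, limma adjusted p = 0.0202). *CASP1* (log2 fold change -1.28), *CASP2* (-1.43) and *PHT1;1* (-0.93) were below 0v without overlap and *SCR* (0.41) above it, but did not pass, whereas limma-voom called 5 root markers lower (*PYK10*, *CASP1*, *CASP2*, *PHT1;1* and *MYB36*). The summed root markers, most of which is *PYK10*, ran from 5500 to 8530 normalized counts in 4v and from 14123 to 20563 in 0v, without overlap. Of 7 shoot meristem markers 4 were in the table and 3 tested, and 2 were higher in 4v, *KNAT1* (log2 fold change 1.27) and *STM* (0.99). The remaining tested marker, *CLV1*, went the other way (log2 fold change -0.40) and did not pass. Among 18 other settings *KNAT1* passed in 18, *CA1* in 17, *STM* in 13 and *PYK10* in 12. The listed *WUS*, *CLV3* and *UFO* had no row among the genes used here. The summed meristem markers ran from 631 to 685 in 4v and from 372 to 1010 in 0v and overlapped. The 5 leaf markers included 1 that was lower in 4v, *CA1* (log2 fold change -1.96). *CAB1* (0.58), *LHCB2.1* (0.11), *GLDP1* (0.01) and *RBCS1A* (-0.13) did not pass. The leaf markers summed to between 267683 and 521743 in 4v and between 229211 and 390381 in 0v, also with overlap. The part of these markers in the *FLC*, *FLM* and *SOC1* values was not tested.

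Over the 6 libraries, patterns were compared between each of the 7 genes and 12020 tested genes with a mean of at least 50 normalized counts, by the root mean square difference of centred log2 values. *FLC* was most like AT2G19810 (0.12), *ATL15* (0.14) and AT2G42040 (0.15), and *FLM* most like AT5G52980 (0.06), *SWC2* (0.08) and AT4G16563 (0.09). *MAF2* was most like AT3G07230 (0.04), *VHA-D* (0.05) and AT5G48680 (0.05), all of them genes that did not pass. *MAF3* was most like *ERD14* (0.07), *PAO* (0.09) and AT3G50550 (0.10), *MAF4* most like *BGLU44* (0.07), AT1G53200 (0.10) and AT5G24450 (0.12), and *MAF5* most like AT1G51350 (0.15), AT1G79030 (0.17) and *GAUT6* (0.17). *SVP* had the loosest matches, *GLTP2* (0.16), *CLT3* (0.21) and *DML2* (0.28), which shared its low values in 4v replicate 1 and 0v replicate 2. *GLTP2*, for example, had 39.6, 84.3 and 82.3 normalized counts in 4v, against 75.1, 16.1 and 68.2 in 0v. All these genes were picked for likeness over the same 6 libraries, so shared low values and calls follow from the choice.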

How the data were processed

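Poly(A)-selected libraries (Illumina TruSeq, HiSeq, read pairs of 75 bases) were made from 3 biological replicates per group. The authors processed the reads with Kallisto against TAIR10 and normalized with DESeq2, and the deposited values are normalized counts, a signal scaled by size factors; per the submitters' processing notes no versions are given. Each value was a whole multiple of the normalized count of 1 read in its library (100% of values, within 0.05 read), and reads were recovered from it. The deposited table also holds the authors' own fold changes and p-values, which were not used. Of 18369 genes 1 displaced row was left out, and 20 columns without a sample name were not used.

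The test was limma 3.58.1 (R 4.3.3; lmFit, eBayes with trend) on log2(normalized count + 4) over genes whose mean reached 10, group being the only term, two-sided, with Benjamini-Hochberg adjustment. Reads were also tested with limma-voom, edgeR 4.0.16 and DESeq2 1.42.0; further settings were pseudocounts of 1 and 16, no filter, a filter at 50, quantile normalization, thinning to the shallowest library, the shallow libraries alone, the replicate number as a block, depth class as a second term (added after seeing the data), and leaving out each library. Intervals are exact Poisson 95% intervals and, without molecular identifiers, cover counting error only. The script was tested on simulated data.

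The sequences, transcript lengths and RY motif searches came from RefSeq (TAIR10.1); 18307 genes matched by identifier, 18306 with the same coordinates as the table. Named genes were the 7 repressors, the listed genes that passed (at most 4 a direction and list), *FT*, *SOC1*, *VIN3*, *VRN2*, the chromosomal neighbours, and the 3 genes most like each repressor; *VIP4*, *VIP5*, *FES1*, *PI*, *SEP4* and the other genes named were added after their values were seen. The 7 genes and the lists were chosen with earlier results of these data known.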

Additional observations from a re-analysis of the deposited data

How the results depend on the processing

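The directions of *FLC* (log2 fold change -1.66 to -1.13 over 17 other settings) and *FLM* (0.82 to 1.16 over 18) held in every setting tried, but their calls did not. *FLC* passed in 8 of 17 settings and *FLM* in 13 of 18. Of the 7 repressors, 1 was higher in 4v and 1 lower; the counts became 2 and 0 with a filter at a mean of 50, which leaves *FLC* untested, 2 and 1 with limma-voom, 2 and 0 with thinned reads, and 1 and 0 with the shallow libraries alone. Leaving out 1 library gave 0 to 2 higher and 0 lower. *MAF3* passed in 5 of 18 settings.

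Same-numbered libraries of the 2 groups gave correlations of their deviations from the group means of 0.07, -0.13 and -0.13. With 3 libraries a group the deviations are tied to each other, so these values cannot show whether the replicates were paired. The largest correlation, 0.27, was between the 2 deep libraries. With depth class as a second term, a setting added after seeing the data, 2 of the 7 genes were higher (*FLM* and *MAF3*, adjusted p 0.0220 and 0.0325) and 1 lower (*FLC*, 0.0425). With the replicate block, 0 of the 7 genes were higher and 0 lower, with adjusted p of 0.0775 for *FLC* and 0.0614 for *FLM*, and over all genes 481 were higher and 567 lower, against 1083 and 1172 without it. Over all genes limma-voom gave 2498 higher and 2318 lower, and leaving out 1 library gave 260 to 1521 higher and 400 to 1440 lower. With limma-voom 3 activators of *FLC* and 1 repressor (*FLD*, listed at 0 in a deep library) were lower, against 0 and 0 with limma.

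*MAF2* changed sign without passing: 0.016 with the shallow libraries alone, 0.04 without 4v replicate 1 and 0.10 without 0v replicate 3, within a range of -0.15 to 0.10 when 1 library was left out. *SVP* gave -0.24 without 0v replicate 2, within a range of -0.24 to 0.67. Per kilobase of coding length the places in 4v became 1 for *MAF2*, 2 for *FLM* and 3 for *MAF3*, and in 0v 3 for *FLM* and 5 for *FLC*. The cause of the lost calls was not tested. Depth limits *FLC*, *MAF4* and *MAF5* most, with 2 to 22 reads in each shallow library.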

Other observations

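Other genes of the pathway also had values that differed widely between replicates of 1 group. *LHP1*, which encodes the reader of the Polycomb mark, had 6, 429 and 47 reads in 4v, against 34, 5 and 490 in 0v, low in the same libraries as *SVP*. *FY*, which encodes an RNA 3′-end processing factor, had 0, 450 and 31 reads in 4v, against 21, 0 and 309 in 0v. *PIE1*, which encodes a chromatin remodeller, was listed at 0 in 4v replicates 1 and 3 and in 0v replicate 1, while it had 1614 reads in 4v replicate 2, and 51 and 488 in 0v replicates 2 and 3. *FLD*, which encodes a histone demethylase homologue, was listed at 0 in the deep 4v library and had 21 and 6 reads in the other 4v libraries, against 26, 20 and 37 in 0v. Of 12020 genes with a mean of at least 50 normalized counts, 370 (3.08%) were listed at 0 in 1 or more libraries, and none of the 7 repressors was.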
